A study of Mus musculus with 6 samples.

Results

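Contacts of the far distal V genes of the mouse immunoglobulin heavy chain (Igh) locus with one another and with the near distal V genes were counted by chromosome conformation capture carbon copy (5C), which ligates HindIII fragments that lie close together in the nucleus and counts each junction with a forward and a reverse primer. The far distal V region was the stretch of chromosome 12 from 116539430 to 117190694 (mm9), 651 kb long, covered by 28 primer fragments of 1213 to 8555 bp. The near distal V region, from 115723372 to 116439886, spanned 717 kb with 43 fragments and ended 99.5 kb before the far one. Every forward-reverse pair with one fragment midpoint in the far region and the other in either region was kept. That gave 798 of the 12656 Igh primer pairs, of which 196 lay within the far region and 602 joined near to far. The choice used positions, not reads.

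Resting B cells were CD43- B cells taken straight from the spleen with magnetic beads. Pro-B cells came from the bone marrow of Rag2-deficient mice and were grown with the cytokine IL7. Mouse embryonic fibroblasts (MEF), cells outside the B lineage, came from culture. Each cell type had 2 biological replicates, per the series description. No source used here gives the strain of the mice. Resting B cells differed from both other groups in being uncultured and in carrying rearranged alleles, so stage, culture and the state of the alleles cannot be told apart.

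The V genes are gene segments, and B-cell progenitors join a V gene to a D and a J segment to make an antibody heavy chain. They lie in a long array, and the distal ones, at its 5′ end, are the farthest from the D and J segments. In pro-B cells the array is known to fold so that distal V genes come near the D-J end, and the factors Pax5 and YY1 and the polycomb protein Ezh2 are known to be needed for distal V genes to recombine. Rag2 is part of the enzyme that cuts at V, D and J segments, so Rag2-deficient cells keep their alleles unrearranged. Resting B cells carry rearranged alleles, and joining a V gene deletes the DNA between it and the D-J segment. In RefSeq's gene order on assembly GRCm38.p6, the 60 V genes at the distal end comprise 46 of family 1 (Ighv1, also called J558) and 14 of family 8 (Ighv8, also called 3609). No mm9 annotation was used, so no V gene is assigned to a fragment here, and fragments are called by their primer names, FOR for forward and REV for reverse.

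Libraries held 20580457 to 24191175 valid read pairs, of which 91.3% to 93.4% joined 2 Igh fragments. Reads that joined an Igh fragment to the gene desert, a control on chromosome 5, made up 0.554% in pro-B replicate 1. In the other libraries they made up 2.02% to 3.41%. Member pairs had a median of 171.5 to 490.5 reads per library within the far region and 75 to 150.5 between near and far. Pro-B replicate 2 had 8 and 73 pairs with 0 reads in these classes, against at most 3 and 37 in any other library. A pair at 0 could hold up to 3 reads of its library's total by counting error alone. Of the members, 192 of 196 and 577 of 602 passed the filter of at least 10 reads in at least 2 libraries and were tested.

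**Figure D1:**
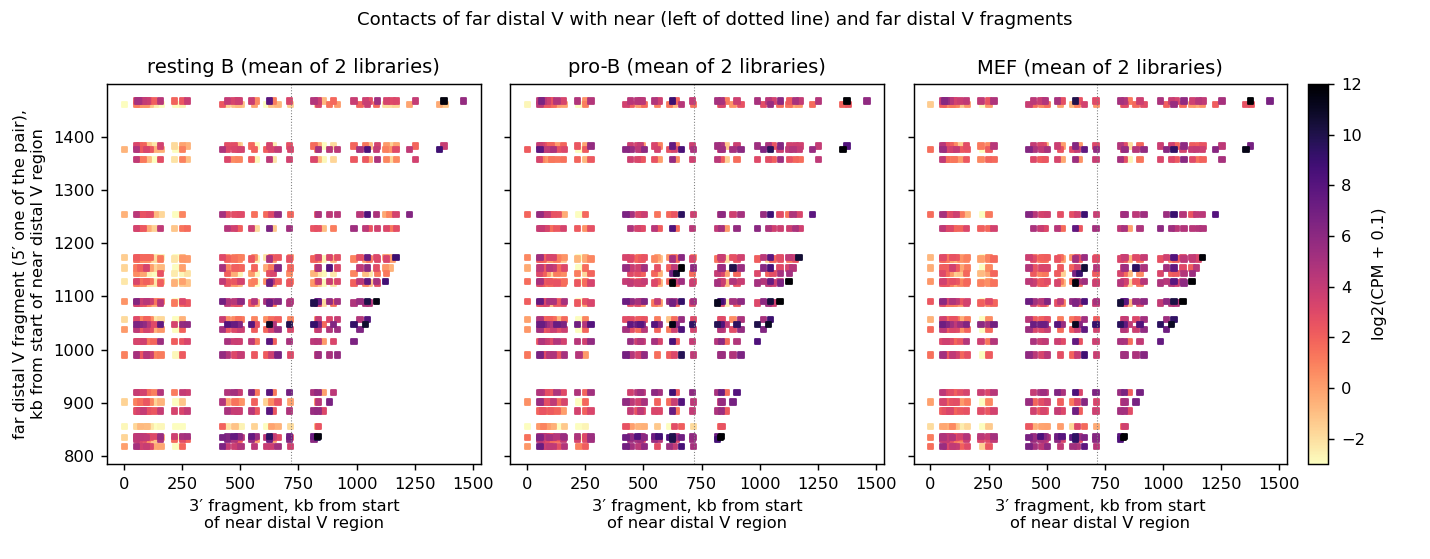
Contacts of the far distal V fragments. Each square is a primer pair, placed by the distances of its 3′ fragment (x, kb) and its 5′ fragment (y, kb) from the start of the near region, and coloured by log2(CPM + 0.1) of the mean of 2 libraries. Colours are paler in resting B cells across most of the map. Black squares just left of the dotted line in pro-B cells and MEF, the patch of near fragments 542 to 556 with far fragments 694 to 705, are paler in resting B cells.

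Contacts within the far distal V region were lower in resting B cells than in either other cell type. Summed over the 196 pairs, resting B replicates 1 and 2 held 21943 and 20090 CPM (reads scaled to library size with TMM factors), pro-B replicates 89591 and 36556, and MEF replicates 70090 and 41305. Both resting B libraries lay below all 4 others, and the replicates of the other cell types differed by more than those of resting B cells. The log2 fold was -1.59 ± 0.48 for resting B over pro-B cells and -1.41 ± 0.48 for resting B cells over MEF (SE over 2 libraries a group; adjusted p = 0.0306 and 0.0403 by edgeR's quasi-likelihood test with Benjamini-Hochberg over 55 pairs of regions). Of those 55 sums, 21.8% and 16.4% passed as lower in these comparisons, and 20% and 32.7% as higher. Pro-B cells over MEF gave 0.18 ± 0.47, which did not pass (edgeR, adjusted p = 0.851), where 9.09% of the 55 sums passed as higher.

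A few pairs of adjoining fragments carried much of this sum. The 6 pairs whose fragments touch on the map held 36.6% and 40.1% of the far region's reads in resting B libraries, 59.5% and 55.4% in pro-B cells, and 51.8% and 47.8% in MEF. Without them the folds were -1.02 for resting B over pro-B cells and -1.09 for resting B cells over MEF, and neither passed (edgeR, adjusted p = 0.0732 and 0.0689). This alternative was chosen after the values were seen.

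Adjoining pairs did not move alike. Reads of single pairs and fragments are given here unscaled, and overlap between groups was judged in CPM. FOR 694 (116846437 to 116851009) with REV 695, the next fragment, had 11373 and 8116 reads in resting B libraries, 237565 and 121661 in pro-B cells, and 107839 and 120581 in MEF. FOR 609 (116553198 to 116556522) with REV 610 had 21635 and 22338, 354515 and 153799, and 128027 and 126840 reads in the same order of cell types. In both pairs all resting B libraries lay several-fold below the rest, with log2 folds over pro-B cells of -4.46 ± 0.64 and -3.79 ± 0.68 (edgeR, adjusted p = 0.0214 and 0.0298). Over MEF the folds were -3.65 ± 0.61 and -2.64 ± 0.65, and neither passed (edgeR, adjusted p = 0.05, just short of the threshold, and 0.0898). FOR 685 (116809861 to 116811073) with REV 686 held 68081 and 65348 reads in resting B libraries, 109727 and 50172 in pro-B cells, and 94294 and 81543 in MEF. There the pro-B libraries lay on both sides of the resting B ones, and the fold of -0.51 ± 0.60 did not pass (edgeR, adjusted p = 0.597).

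Contacts between the near and far distal V regions were lower in resting B than in pro-B cells. The 602 pairs summed to 12142 and 12449 CPM in resting B replicates, 52213 and 22673 in pro-B replicates, and 25301 and 18717 in MEF. The groups did not overlap between resting B cells and either other cell type, while pro-B replicate 2 lay between the MEF libraries. The log2 fold was -1.61 ± 0.41 for resting B over pro-B cells (edgeR quasi-likelihood, adjusted p = 0.0228). It was -0.84 ± 0.40 for resting B cells over MEF and 0.77 ± 0.40 for pro-B cells over MEF, neither past the threshold of 0.05 (edgeR, adjusted p = 0.105 and 0.287). When every pair had equal weight, as its mean log2 CPM, resting B cells over MEF passed at -0.97 (limma, adjusted p = 0.0177), and pro-B cells over MEF turned to -0.15 (limma, adjusted p = 0.716).

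Pro-B replicate 1 set much of the size of these differences, and each sum depended on single libraries. Without pro-B replicate 1, resting B over pro-B cells was -0.81 within the far region and -0.90 between near and far. Without pro-B replicate 2, pro-B cells over MEF stood at 1.25 between near and far. Both of these fits had a single pro-B library and so held no spread of pro-B cells. Resting B over pro-B cells failed without MEF replicate 2 (adjusted p = 0.0559 within far, 0.0525 between near and far by edgeR) and without either resting B replicate (0.118 and 0.151 within far, 0.0573 and 0.0669 between near and far by edgeR). Resting B cells over MEF within the far region failed without either MEF replicate (adjusted p = 0.204 and 0.0704 by edgeR) and without either resting B replicate (0.126 and 0.199). No sum of resting B cells over another cell type turned positive without any 1 library. Scaling to gene desert reads, a control on chromosome 5, left -0.83 for resting B cells over MEF within the far region (edgeR, adjusted p = 0.0635) and -1.14 for resting B over pro-B cells between near and far (adjusted p = 0.06).

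Split by separation, resting B over pro-B cells passed in the shortest band within the far region and the longest band between near and far. For resting B over pro-B cells, pairs within the far region under 50 kb apart had a log2 fold of -1.93 ± 0.53, and near-far pairs over 500 kb apart -2.06 ± 0.40 (edgeR quasi-likelihood with Benjamini-Hochberg over 91 sums, adjusted p = 0.0309 and 0.015). These were 2 of the 7 bands of member pairs, where 20.9% of all 91 sums passed as lower. In the first, the 6 adjoining pairs held 191693 and 173993 of 303883 and 256623 reads in resting B libraries. In pro-B cells they held 934774 and 477145 of 1185493 and 614642. In the second, FOR 694 with REV 545, 501 kb apart, held 3242 and 3512 of 112935 and 99014 reads in resting B libraries. In pro-B cells it held 209896 and 101000 of 455743 and 300723. Neither band was tested without these pairs. The other bands had folds from -0.65 to -1.26, with adjusted p between 0.0505 and 0.194 by edgeR. For resting B cells over MEF 3 bands passed: within the far region under 50 kb (-1.56 ± 0.52) and 50 to 200 kb (-1.37 ± 0.40), and near-far over 500 kb (-1.21 ± 0.39; edgeR, adjusted p = 0.0479, 0.0344 and 0.0436). Of the 91 sums, 14.3% passed as lower there. For pro-B cells over MEF none of the 7 bands passed, where 8.79% of the 91 sums passed as higher, and the smallest unadjusted p was 0.065, for near-far pairs over 500 kb apart (0.84 ± 0.39). All 7 folds of resting B cells lay below 0 against pro-B cells and against MEF. Of the bands of resting B cells none passed when either resting B replicate was left out, and leaving out MEF replicate 1 left none for resting B cells over MEF. Leaving out a pro-B replicate changed the number of bands that passed in both comparisons, and the share of all 91 sums in those fits was not taken.

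Median levels per pair were lower over 500 kb than in the shortest band of the same class in every library. Near-far pairs over 500 kb apart had median values of 2.93 and 2.87 CPM per pair in resting B libraries, 5.48 and 4.25 in pro-B cells, and 4.62 and 4.18 in MEF. Pairs within the far region under 50 kb apart had medians of 39.4 and 29.8 CPM in resting B libraries, 117.8 and 63.9 in pro-B cells, and 113.4 and 99.3 in MEF. In both bands the resting B libraries were the lowest.

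**Figure D2:**
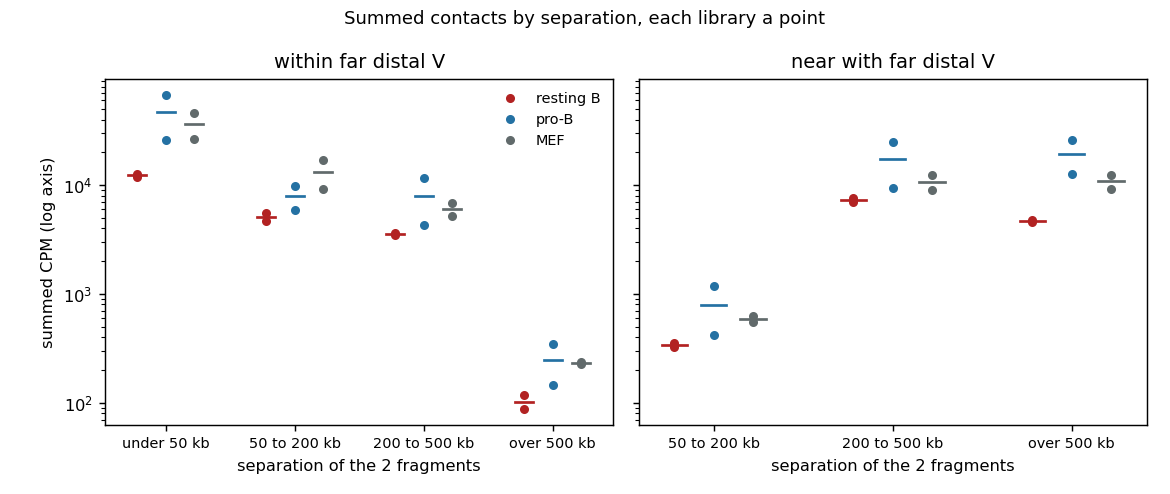
Summed CPM (log axis) of member pairs by the separation of their fragments, within the far region (left) and between near and far (right). Points are libraries and bars are means of 2 libraries. The resting B libraries are the lowest in every band, and the pro-B replicates lie apart in most bands, for example at 67654 and 26107 CPM within the far region under 50 kb.

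The single primer pairs that passed in edgeR were all lower in resting B cells. For resting B over pro-B cells, 33 of the 192 tested pairs within the far region and 63 of the 577 near-far pairs passed as lower, 17.2% and 10.9%, where 5.16% of all 11940 tested Igh pairs passed as lower and 2.74% as higher (edgeR quasi-likelihood with Benjamini-Hochberg). No member pair passed as higher. Before adjustment 3 and 13 members had a positive fold with p under 0.05 by edgeR, where 1512 of all 11940 tested Igh pairs did. DESeq2 called 2 and 7 members higher, and its share over all pairs was not taken. The median log2 fold was -1.33 within the far region and -0.96 between near and far, against 0.01 over all tested Igh pairs. Both resting B libraries lay below both pro-B libraries in 63.0% and 48.9% of the members, against 29.0% of all tested pairs, and above both in 8.85% and 14.6%, against 33.0%.

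For resting B cells over MEF, 3 pairs within the far region and 5 near-far pairs passed as lower, 1.56% and 0.867%, where 0.385% of all tested Igh pairs passed as lower and 0.369% as higher. None passed as higher in edgeR. Before adjustment 0 and 7 had a positive fold with p under 0.05 by edgeR, where 1043 of all 11940 tested Igh pairs did. DESeq2 called 0 and 1 higher, and its share over all pairs was not taken. The medians were -1.32 and -0.80, against -0.02 over all tested pairs, and 89.1% and 76.3% of members had a fold below 0. Both resting B libraries lay below both MEF libraries in 76.6% and 57.2% of members, against 35.9% of all tested pairs, and above both in 5.73% and 12.5%, against 33.9%.

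For pro-B cells over MEF no pair passed in edgeR, among the members or among all tested pairs (0%). Before adjustment 6 members within the far region and 40 between near and far had p under 0.05 by edgeR. Of these, 3 and 38 were higher in pro-B cells. Over all 11940 tested Igh pairs 1094 had p under 0.05, 596 of them higher in pro-B cells. DESeq2 called 0 and 8 members higher, and its share over all pairs was not taken. Both pro-B libraries lay above both MEF libraries in 23 of 192 and 137 of 577 members and below in 35 and 79 (18.2% and 13.7%), against 19.3% above and 22.8% below among all tested pairs. Medians were 0.07 and 0.24, against 0.03 over all tested pairs. The near-far pairs with the smallest p were FOR 399 with REV 628 (log2 fold 2.21 ± 0.53), FOR 661 with REV 401 (2.04 ± 0.52) and FOR 436 with REV 610 (2.47 ± 0.68), all at an adjusted p of 0.401 by edgeR.

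Leaving out a single MEF or resting B library left no member past the threshold for resting B over pro-B cells or for resting B cells over MEF. Without pro-B replicate 1, 61 and 160 members were lower and 15 and 105 higher for resting B over pro-B cells, within far and between near and far. Leaving out pro-B replicate 2 gave 102 and 199 lower and 2 and 17 higher. For resting B cells over MEF 89 and 135 were lower when pro-B replicate 1 was left out, and 93 and 144 when it was pro-B replicate 2. Pro-B cells over MEF gave 2 and 31 higher and 29 and 112 lower when pro-B replicate 1 was left out, and 3 and 12 higher and 0 and 1 lower when it was pro-B replicate 2.

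**Figure D3:**
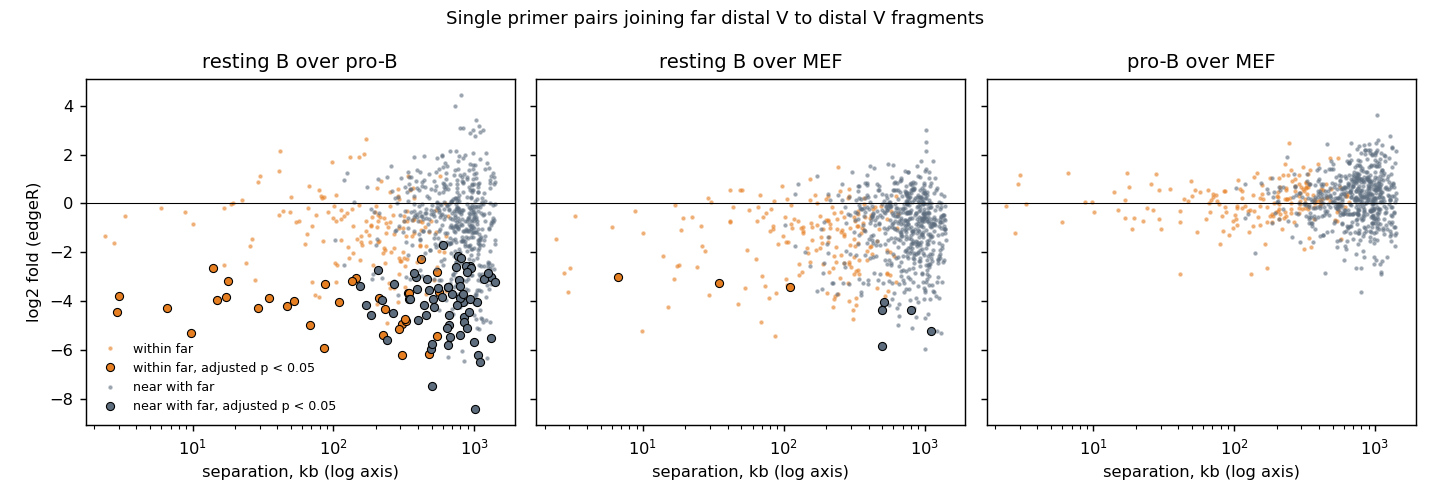
Log2 folds of the 769 tested member pairs (y) against the separation of their fragments (x, kb, log axis), for resting B over pro-B cells, resting B cells over MEF and pro-B cells over MEF. Outlined points passed an adjusted p of 0.05 in edgeR. They lie below 0 at separations from a few kb to over 1 Mb in the first panel, 8 lie below 0 in the second, and none passed in the third.

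Some of the falling pairs joined near and far fragments 798 to 1108 kb apart. FOR 769 (117102069 to 117108895), near the 5′ end of the far region, with REV 464 (115993659 to 116000828), 1108 kb away, had 19 and 8 reads in resting B libraries, 1228 and 877 in pro-B cells, and 444 and 491 in MEF. Its resting B libraries lay far below the other 4, at -6.50 ± 0.71 over pro-B cells and -5.21 ± 0.67 over MEF (edgeR, adjusted p = 0.0189 and 0.0435). FOR 556 (116385510 to 116386658) with REV 788 (117183045 to 117185079), 798 kb apart, had 15 and 9 reads in resting B libraries, 485 and 391 in pro-B cells, and 165 and 339 in MEF. This pair also fell in both comparisons, by 5.39 ± 0.70 and 4.38 ± 0.67 on the log2 scale (edgeR, adjusted p = 0.0207 and 0.0467). FOR 399 (115776652 to 115778814) with REV 628 (116622296 to 116627666), 847 kb apart, had 53 and 31 reads in resting B libraries, 682 and 1274 in pro-B cells, and 212 and 213 in MEF. There the groups had no overlap in any comparison, and the fall passed against pro-B cells (-4.66 ± 0.59, adjusted p = 0.0195) but not against MEF (-2.46 ± 0.54, adjusted p = 0.0742 by edgeR).

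Within the far region, FOR 694 with REV 686 (116811074 to 116816454), 35.0 kb apart, had 188 and 108 reads in resting B libraries, 2065 and 1686 in pro-B cells, and 912 and 1971 in MEF. FOR 702 (116864979 to 116868374) with REV 733 (116972605 to 116981159), 110 kb apart, had 45 and 32, 554 and 565, and 257 and 593 reads in the same order of cell types. Both fell in resting B cells, over pro-B cells by 3.88 ± 0.50 and 4.04 ± 0.56 and over MEF by 3.28 ± 0.49 and 3.44 ± 0.55 on the log2 scale (edgeR, adjusted p between 0.0205 and 0.0499). FOR 729 with REV 628, FOR 769 with REV 606 and FOR 609 with REV 713, 326, 565 and 341 kb apart, fell over pro-B cells by 4.74, 3.61 and 3.69 (edgeR, adjusted p = 0.0324, 0.0339 and 0.0413). Against MEF these 3 pairs did not pass (edgeR, adjusted p = 0.0774, 0.0815 and 0.108).

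A few member pairs had positive folds in resting B over pro-B cells without passing. FOR 611 with REV 457, 587 kb apart, had 674 and 779 reads in resting B libraries, 148 and 193 in pro-B cells, and 231 and 456 in MEF, a log2 fold over pro-B cells of 1.95 ± 0.47 (edgeR, adjusted p = 0.05, just short of the threshold). FOR 685 with REV 654, 97.4 kb apart, had 625 and 593, 164 and 165, and 218 and 557 reads, a fold of 1.71 ± 0.50 (edgeR, adjusted p = 0.0781).

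Summed over all distal V partners, each of the 28 far fragments had a negative fold in resting B cells against both other cell types. Over pro-B cells 15 of 28 passed as lower and none as higher, where 38.2% of all 225 Igh fragments passed as lower for their reads with distal V (edgeR quasi-likelihood with Benjamini-Hochberg over 225). Over MEF 13 of 28 passed as lower and none as higher, where 33.8% of all fragments passed as lower and 17.3% as higher. The median fold of the far fragments was -1.26 over pro-B cells and -1.38 over MEF, against -0.74 and -0.49 over all 225. Of pro-B cells over MEF none of the 28 passed in edgeR, where 0.889% of all fragments passed as higher. DESeq2 called 1 higher, and 2 had p under 0.05 by edgeR before adjustment. The shares of all fragments for these 2 counts were not taken.

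The fragments differed widely among themselves. FOR 702 had 1229 and 781 reads with distal V in resting B libraries, 46192 and 34320 in pro-B cells, and 17732 and 18652 in MEF. FOR 694 had 15857 and 12435, 456701 and 228739, and 171735 and 201654 reads. These neighbours in the middle of the far region had the strongest folds, at -5.55 ± 0.52 and -4.85 ± 0.77 over pro-B cells and -4.29 ± 0.49 and -3.81 ± 0.73 over MEF (edgeR, adjusted p between 0.000418 and 0.00487). FOR 769, nearer the 5′ end, fell too, with 2502 and 2322 reads in resting B libraries, 22621 and 13331 in pro-B cells, and 8714 and 12832 in MEF, and folds of -3.13 ± 0.43 and -2.20 ± 0.41. REV 695, FOR 609, FOR 764 and REV 628 fell as well in both comparisons, by 3.52, 3.24, 2.88 and 2.59 over pro-B cells on the log2 scale. In pro-B replicate 1 a single pair, with FOR 694, held 237565 of the 248129 reads of REV 695. The pair with REV 768 held 107438 of the 112224 reads of FOR 764. Over pro-B cells 3 partners of REV 695 and 1 of FOR 764 passed as lower, with median folds over partners of -0.71 and -1.75. For FOR 609 and REV 628 these were 9 and 11 partners, with medians of -2.36 and -3.23. REV 705 fell over pro-B cells (-3.57 ± 1.00, adjusted p = 0.0175) and did not pass over MEF (-2.23 ± 0.94, adjusted p = 0.074 by edgeR).

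FOR 671, the fragment from 116768031 to 116772149, had high read numbers in all 3 cell types, with 248052 and 205384 reads in resting B libraries, 376666 and 192373 in pro-B cells, and 221258 and 312018 in MEF. Scaled to library size, its resting B libraries lay between the pro-B libraries and below both MEF libraries, and its folds of -0.58 ± 0.66 and -0.29 ± 0.66 did not pass (edgeR, adjusted p = 0.454 and 0.739). FOR 624 and FOR 685 also had small folds in their sums, -0.52 ± 0.56 and -0.64 ± 0.63 over pro-B cells. Counted pair by pair, their medians over partners were 0.70 and 0.29, above 0, where the median of FOR 702 was -4.15 and that of FOR 694 -3.82. FOR 694 had 15 partners that passed as lower of 34 tested, and FOR 624 and FOR 685 had none.

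Reads of the same fragments with the gene desert, which lies on another chromosome, fell for some of them. Over pro-B cells 3 of 28 far fragments passed as lower, REV 628 (-2.10 ± 0.49), REV 705 (-2.23 ± 0.57) and REV 768 (-1.37 ± 0.39), where 6.22% of all Igh fragments did and 2.67% passed as higher (edgeR, adjusted p = 0.0192, 0.0297 and 0.0428). FOR 694 and FOR 702 had desert folds of -1.91 ± 0.61 and -1.60 ± 0.62, which did not pass (edgeR, adjusted p = 0.061 and 0.0978). These rest on few reads that differ between pro-B replicates. FOR 694 had 96 and 64 desert reads in resting B libraries, 77 and 240 in pro-B cells, and 67 and 62 in MEF. FOR 702 had 58 and 103, 19 and 466, and 49 and 64 in the same order. The median over the 28 was -0.39 over pro-B cells and -0.16 over MEF, and none passed over MEF (-1.74 to 0.45), where 0.444% of all Igh fragments passed as lower. The part of fragment recovery or copy number in the distal V folds was not tested. Without either resting B replicate, fewer of the fragment sums passed as lower over pro-B cells and over MEF. Fewer also passed over pro-B cells without pro-B replicate 1, and over MEF without MEF replicate 1. The share of all Igh fragments that passed in those fits was not taken.

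**Figure D4:**
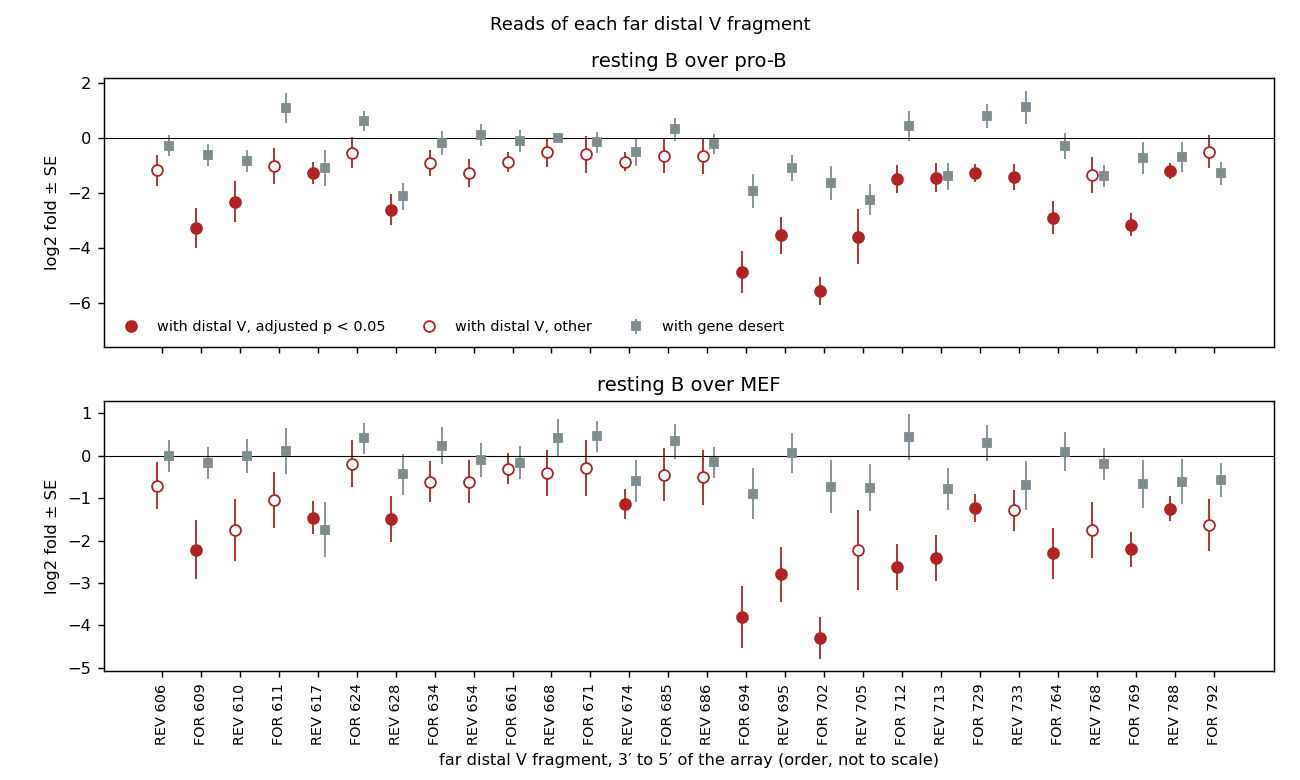
Log2 folds ± SE of the reads of each of the 28 far distal V fragments with all distal V partners (circles, filled where the adjusted p was under 0.05 in edgeR) and with the gene desert (squares), in map order, for resting B over pro-B cells (top) and resting B cells over MEF (bottom). All circles lie below 0. FOR 694, REV 695 and FOR 702 lie lowest in the bottom panel. Between FOR 624 and REV 686 most circles lie higher than these but still below 0. In that stretch REV 628 lies lower, and REV 674 (-1.13) is also filled in the bottom panel.

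The near-far pair with the highest mean CPM in pro-B cells and in MEF lay in a small patch, which held none, 3 and 2 of the top 5 near-far pairs in resting B cells, pro-B cells and MEF. It joins near fragments 542 to 556 (116335333 to 116386658) to far fragments 694 to 705 (116846437 to 116877871), about 500 kb apart, and its 10 pairs were picked after the values were seen, so the patch gets no test. These 1.66% of near-far pairs held 2.45% and 2.03% of near-far reads in resting B libraries, 42.4% and 33.7% in pro-B cells, and 28.0% and 18.6% in MEF. Of the patch's reads, 3 pairs (FOR 694 with REV 545, FOR 556 with REV 705 and FOR 702 with REV 552) carried 84.5% and 87.5% in resting B libraries, 99.01% and 97.5% in pro-B cells, and 97.4% and 93.8% in MEF. Its summed level was 297 and 253 CPM in resting B libraries, 22160 and 7634 in pro-B cells, and 7090 and 3485 in MEF. Without the patch the other near-far pairs held 11844 and 12197 CPM in resting B libraries, 30053 and 15039 in pro-B cells, and 18211 and 15232 in MEF. The fold of resting B over pro-B cells was then -0.91 ± 0.35 and no longer passed (edgeR, adjusted p = 0.0558).

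FOR 694 with REV 545 (116342486 to 116353413), 501 kb apart, led the patch with 3242 and 3512 reads in resting B libraries, 209896 and 101000 in pro-B cells, and 59461 and 72860 in MEF. The 3 cell types did not overlap, and the fall in resting B cells passed over pro-B cells (-5.77 ± 0.68) and over MEF (-4.36 ± 0.63; edgeR, adjusted p = 0.0195 and 0.044). FOR 702 with REV 545, 519 kb apart, had 178 and 115 reads in resting B libraries, 2109 and 2892 in pro-B cells, and 1370 and 3512 in MEF, and fell by 4.25 ± 0.46 and 4.02 ± 0.45 (edgeR, adjusted p = 0.0189 and 0.0383). FOR 702 with REV 552 (116364360 to 116366864) fell likewise, with a fold over MEF of -5.86 ± 0.69 (edgeR, adjusted p = 0.0383).

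FOR 556 with REV 705 (116875021 to 116877871), 490 kb apart, held 2454 and 1122 reads in resting B libraries, 136247 and 47304 in pro-B cells, and 45872 and 7327 in MEF. Both resting B libraries lay below the other 4, while pro-B cells and MEF overlapped in CPM and the MEF libraries differed several-fold. The fall in resting B cells passed over pro-B cells (-5.98 ± 1.29, adjusted p = 0.0394) and not over MEF (-4.25 ± 1.19, adjusted p = 0.114 by edgeR). Not every pair of the patch was lower in resting B than in pro-B cells: FOR 548 with REV 695 had 630 and 413 reads there, 392 and 194 in pro-B cells, and 646 and 811 in MEF, and its fold of 0.57 ± 0.57 over pro-B cells did not pass (edgeR, adjusted p = 0.535). Of the near fragments of the patch, FOR 556 fell in its reads with the gene desert over pro-B cells (-2.10 ± 0.50, adjusted p = 0.0198), and REV 545 had a desert fold of -0.27 ± 0.44 (adjusted p = 0.699 by edgeR). REV 545 had the most desert reads of any near fragment in every library (21057 and 29198 in resting B, 5494 and 37151 in pro-B, 12679 and 7153 in MEF). It held 91991 and 104877 of 289686 and 268980 near-far reads in resting B libraries. In pro-B cells it held 366193 and 231771 of 914922 and 533793, and in MEF 170653 and 209328 of 432747 and 513002.

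**Figure D5:**
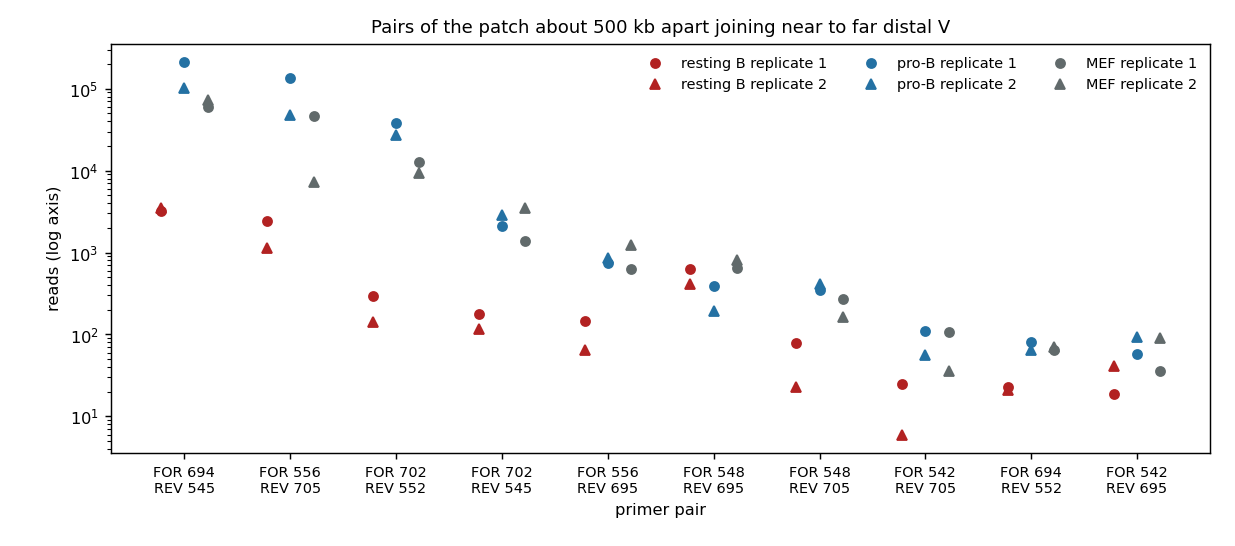
Reads (log axis) of the 10 primer pairs that join near fragments 542 to 556 to far fragments 694 to 705, in each library, ordered by their summed CPM. In the leading pair the resting B libraries hold 3242 and 3512 reads and the pro-B libraries 209896 and 101000, while in FOR 548 with REV 695 resting B replicates 1 and 2 hold 630 and 413 reads and pro-B replicates 392 and 194.

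The same near fragment, REV 545, overlapped between cell types in its reads with another far fragment. With FOR 671, 422 kb away, it had 42729 and 49139 reads in resting B libraries, 69860 and 42587 in pro-B cells, and 37496 and 60262 in MEF, with folds of -0.51 ± 0.48 and -0.11 ± 0.48 in resting B cells (edgeR, adjusted p = 0.504 and 0.916). All 3 groups overlapped, and this pair held the most near-far reads of both resting B libraries, 14.8% and 18.3%. FOR 671 with REV 571 (116433753 to 116436207), 335 kb apart, had 23244 and 19242 reads in resting B libraries, 16577 and 9758 in pro-B cells, and 9670 and 16140 in MEF. In CPM both resting B libraries lay above both MEF libraries, at 974 and 891 against 565 and 589, and overlapped with pro-B cells, at 946 and 414. The folds of 0.45 ± 0.46 and 0.69 ± 0.46 did not pass (edgeR, adjusted p = 0.54 and 0.434).

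Loops were taken as pairs over 50 kb apart whose reads exceeded, in both replicates, the number given by separation and by the strength of both primers in that library (a standardised residual of at least 2). Within the far region 6 pairs in resting B cells, 4 in pro-B cells and 2 in MEF were loops, of 163 pairs over 50 kb apart. Between near and far there were 15 in resting B cells, 7 in pro-B cells and 5 in MEF, of 602. Over all 12038 Igh pairs at these distances the shares were 0.914%, 0.374% and 0.208%, against 3.68%, 2.45% and 1.23% within the far region and 2.49%, 1.16% and 0.831% between near and far. With a residual of at least 3 the order changed, to 3, 3 and 2 loops within the far region and 4, 5 and 2 between near and far in resting B cells, pro-B cells and MEF. A loop here is relative to its own library, so a pair can be a loop in resting B cells while its reads fell, as FOR 702 with REV 552 did at 293 and 140 reads.

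Most loops of the other cell types were also loops in resting B cells. Within the far region all 4 pro-B loops were among the 6 of resting B cells (100% and 66.7% of the lists), and both MEF loops were too. FOR 685 with REV 606 (116539430 to 116542358), 270 kb apart, was a loop in all 3 cell types, with 21363 and 21699 reads in resting B libraries, 59964 and 27645 in pro-B cells, and 25511 and 36207 in MEF. So was FOR 792 (117189453 to 117190694), at the 5′ end of the region, with REV 768 (117095670 to 117102068), 91.2 kb apart, which had 79654 and 61986 reads in resting B libraries, 74004 and 89545 in pro-B cells, and 234238 and 170060 in MEF. There both MEF libraries stood above the other 4, with folds of -1.68 ± 0.51 for resting B cells over MEF and -1.31 ± 0.50 for pro-B cells over MEF, neither past the threshold (edgeR, adjusted p = 0.134 and 0.506). FOR 671 with REV 606, 229 kb apart, was a loop in resting B cells but not in the others, at 14109 and 12095 reads in resting B libraries, 21488 and 12139 in pro-B cells, and 12593 and 21671 in MEF, and its fold over pro-B cells of -0.60 ± 0.47 did not pass (edgeR, adjusted p = 0.426).

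Between near and far, 6 of the 7 pro-B loops were among the 15 of resting B cells (85.7% and 40.0% of the lists), and 4 of the 5 MEF loops were (80.0% and 26.7%). All 5 MEF loops were among the 7 of pro-B cells. The exception in both was FOR 694 with REV 545, a loop in pro-B cells and MEF but not in resting B cells. The 4 pairs that were loops in all 3 cell types were FOR 702 with REV 552, FOR 556 with REV 705, FOR 542 with REV 610 and FOR 611 with REV 528. The reads of FOR 542 with REV 610, 222 kb apart, nevertheless fell to 589 and 362 in resting B cells, against 8624 and 3525 in pro-B cells, and stood at 3788 and 4936 in MEF (-3.95 ± 0.65 over pro-B cells, adjusted p = 0.0262 by edgeR).

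The 2 classes of contact took unequal shares of the reads. Near-far pairs held 35.6% and 38.3% of all member reads in resting B libraries, 36.8% and 38.3% in pro-B cells, and 26.5% and 31.2% in MEF. The 95% Wilson intervals, which cover counting error only, were narrow (35.5% to 35.7% in resting B replicate 1). The means were 36.9% ± 1.9, 37.6% ± 1.0 and 28.9% ± 3.3 (SD, n = 2 each). Both MEF libraries lay below the other 4, and the difference from MEF was 8.09 points for resting B cells and 8.70 points for pro-B cells (exact two-sided permutation test, p = 0.333 for both, the smallest that 2 against 2 libraries allow). Resting B and pro-B cells differed by -0.61 points (exact permutation p = 0.667), but by -10.9 points when pairs under 50 kb were left out (exact permutation p = 0.333).

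Neighbouring classes of contact moved in the same direction. The log2 fold of resting B over pro-B cells was -1.54 ± 0.49 within the near distal V region and -0.67 ± 0.22 between middle and far distal V (edgeR, adjusted p = 0.0372 for both). Between middle and near distal V it was -1.11 ± 0.32 (edgeR, adjusted p = 0.0275). The members had -1.59 within the far region and -1.61 between near and far. Over MEF the fold within the near region was -1.43 ± 0.49 (edgeR, adjusted p = 0.0403), against -1.41 within the far region. Middle V with far and with near distal V had -0.43 and -0.79 over MEF, and neither passed (edgeR, adjusted p = 0.117 and 0.0645). Over single pairs the share that passed as lower was 15.3% within the near region and 8.84% between middle and all distal V, against 17.2% and 10.9% in the members. The differences between these classes were not tested.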

How the data were processed

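5C read counts per primer pair were used as deposited by the authors, as raw counts of valid read pairs (reads of length 42, per the file headers). The submitters' processing notes name Novoalign and the mm9 build, with no version. Unlisted pairs were set to 0. Nothing in the headers records a correction of the counts or molecular identifiers, so amplification duplicates are counted. Cis pairs that reached 10 reads in 2 or more libraries were fitted with edgeR 4.0.16 (R 4.3.3; TMM, quasi-likelihood, all 6 libraries, cell type as the only term) and adjusted over 11940 Igh pairs. Sums over the 55 region pairs, over 91 region pair and separation bands with at least 5 pairs, and over the distal V partners of each of 225 fragments used the same scaling. Reads with the gene desert were scaled over fragments. Each SE was taken from the fold and its F statistic. The loop model was fitted to each library by itself (quasi-Poisson, primer effects and a natural spline of log distance with 4 degrees of freedom). Scripts were tested on simulated single pairs with planted changes. Of 4-fold changes 4% were recovered for pro-B cells over MEF, 5% for resting B cells over MEF and 1% for resting B over pro-B cells. Of 16-fold changes 54%, 38% and 39% were recovered in the same order. A pair that did not pass may therefore still differ by that much.

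Named pairs were, per comparison and class, up to 8 per direction in order of p, past the threshold, over 20 kb apart, without overlap between groups, using each fragment once a direction. Where fewer than 3 passed, up to 3 by unadjusted p were taken. The 5 pairs with the most reads and up to 6 loops per cell type, and 10 fragments by p, were also eligible. Adjoining pairs under 20 kb enter through their reads. FOR 671 with its neighbours, FOR 702 with REV 545 in the second comparison, FOR 548 with REV 695 and the fragments with small folds were singled out after their values were seen. The members and lists were chosen with earlier results of these data known. Alternatives were total or desert reads as library size, DESeq2 1.42.0, other filters, the replicate number as a block, a fit of the 4 libraries compared, an offset for the trend over separation, pairs over 50 kb, equal weight per pair (limma 3.58.1), leaving out the top pair or pairs, and leaving out each library. Replicate numbers did not pair the samples.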

Additional observations from a re-analysis of the deposited data

How the results depend on the processing

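The cause of each change below was not tested unless the alternative itself removes pairs or libraries. For resting B cells over MEF within the far region, the summed fold was -0.83 with gene desert scaling, -0.65 with the separation offset, -1.18 with pairs over 50 kb and -1.09 without adjoining fragments, and none of these passed. Between near and far the fold passed at -0.87 with the 4 compared libraries and at -0.97 with equal weight per pair. For resting B over pro-B cells the fold no longer passed within the far region at -0.80 (over 50 kb), -1.50 (4 libraries) and -1.02 (without adjoining fragments). Between near and far it no longer passed at -1.14 (desert scaling), -1.51 (over 50 kb) and -0.91 (without the patch). For pro-B cells over MEF the sum turned negative within the far region, at -0.39 (over 50 kb), -0.15 (equal weight) and -0.075 (without adjoining fragments), and between near and far at -0.15 (equal weight). The far band over 500 kb turned to -0.049 (total reads), -0.029 (replicate block) and -0.043 (pairs over 50 kb).

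Counts of pairs lower in resting B cells than in MEF, 3 and 5, became 58 and 69 with DESeq2, 5 and 9 with no filter, 5 and 9 with at least 50 reads, 8 and 10 with the offset, 0 and 0 over 50 kb, 92 and 131 with 4 libraries, and 8 within the far region with total reads. DESeq2 called 1 near-far pair higher and the 4 libraries 7. Counts lower than in pro-B cells, 33 and 63, became 71 and 144 with DESeq2, 0 and 0 with 4 libraries, and 18 within the far region over 50 kb. Pairs higher were 2 and 7 with DESeq2, and 1 near-far pair with desert scaling and with at least 50 reads. For pro-B cells over MEF DESeq2 called 8 near-far pairs and 1 fragment higher, desert scaling 3 fragments and the offset 1 band. The bands lower than in MEF, 3, became 1 with total reads, 1 with desert scaling, 1 with the offset and 6 with 4 libraries. Those lower than in pro-B cells, 2, became 6 with DESeq2, 4 with the offset and 1 over 50 kb. The shares over all Igh pairs, bands or fragments were not taken under these alternatives.

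With the replicate number as a block, pairs lower than in MEF were 0 and 1 and pairs lower than in pro-B cells 11 and 28. The numbers did not pair the samples: same-numbered libraries had deviations that correlated at 0.055 (resting B and pro-B cells), -0.0092 (resting B cells and MEF) and -0.025 (pro-B cells and MEF).

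Leaving out each library gave sums for pro-B cells over MEF of -0.61 to 0.69 within the far region and 0.045 to 1.25 between near and far. Each of these fits left 1 library in a group. The shares of all Igh pairs, bands or fragments that passed in them were not taken, so no conclusion is drawn from the counts. Its bands ranged from -0.47 to 0.90 (far, under 50 kb), -0.47 to 0.96 (far, 200 to 500 kb), -0.68 to 0.59 (far, over 500 kb), -0.49 to 1.00 (near-far, 50 to 200 kb) and -0.16 to 1.24 (near-far, 200 to 500 kb). Pairs higher ranged from 0 to 3 and 0 to 31, pairs lower from 0 to 29 and 0 to 112, bands higher from 0 to 4 and fragments higher from 0 to 4. For resting B cells over MEF the sums ranged from -1.74 to -0.98 and -1.04 to -0.61, pairs lower from 0 to 93 and 0 to 144, pairs higher from 0 to 1 and 0 to 6, bands lower from 0 to 6 and fragments lower from 1 to 18. For resting B over pro-B cells the sums ranged from -2.10 to -0.81 and -2.10 to -0.90, pairs lower from 0 to 102 and 0 to 199, pairs higher from 0 to 15 and 0 to 105, bands lower from 0 to 7 and fragments lower from 2 to 22.

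The near-far share differed by 15.7 points for pro-B cells over MEF over 50 kb. For resting B cells over MEF it differed by 3.46 (without the 5 top pairs) and 4.88 points (over 50 kb), and for resting B over pro-B cells by -6.96 and -10.9. The share over 200 kb, 46.8% ± 1.9, 44.8% ± 0.5 and 36.3% ± 4.2 in resting B cells, pro-B cells and MEF (SD, n = 2 each), differed by 15.3 points for pro-B cells over MEF over 50 kb and by 4.89 and 6.72 for resting B cells over MEF. For resting B over pro-B cells the 2.03 points turned to -4.26 and -8.63. With a residual of at least 3, loops in resting B cells, pro-B cells and MEF were 3, 3 and 2 within the far region and 4, 5 and 2 between near and far. Among the pairs and fragments named by p and the pairs of the patch, none changed direction. Of their recomputed values, 131 of 897 for pairs and 55 of 300 for fragments lost the threshold. Pairs named only for their reads or as loops, and the fragments with small folds, were not recomputed. Whether their direction holds was not tested. With 2 libraries a group, calls rest on few degrees of freedom, and pairs of low reads are limited by depth.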
